A study of Homo sapiens with 18 samples.

Results

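The RNAs described are 215 long intergenic noncoding RNAs with a LINC symbol, out of 28100 genes counted in LNCaP cells. They were chosen by their measured level: the most abundant RefSeq transcript of the gene was noncoding (an NR_ prefix), its symbol was LINC plus a number, and it reached at least 1 CPM (a count scaled to library size) in 3 or more of the 18 libraries. Of 1762 LINC symbols with such a transcript in the table, the others stayed below that level. The inclusion rule read levels over all libraries, so an RNA that is present in 1 kind of medium alone could enter through that medium. Of all genes, 15364 met the same level.

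LNCaP is a human prostate carcinoma line derived from a lymph node metastasis, and it expresses the androgen receptor. The cells were exposed for 48 h to 1 of 6 media, with 3 libraries of polyadenylated RNA each. The groups were M1 medium with 0.7 μmol/l IKK16, which inhibits IκB kinase, M1 medium with as much of its solvent DMSO, M1 medium, M2 medium, M0 medium and control medium. Conditioned medium came from THP-1 macrophages, a monocytic leukaemia line differentiated in culture, that were unpolarised (M0) or polarised to M1 or M2. It was mixed 1:4 with RPMI that held 10% heat-inactivated serum, and the control group received that RPMI without conditioned medium. All groups are wild-type LNCaP cells of 1 line, pre-incubated in low-serum medium. The labels number the replicates without saying whether they were separate cultures, so p-values measure the spread between these libraries, which may be technical.

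LINC symbols are given to noncoding genes between coding genes that have not been named for a function. Such RNAs are usually capped, spliced and polyadenylated like messenger RNAs, are often restricted to few cell types, and many are removed in the nucleus by the RNA exosome. NF-κB is the transcription factor family that inflammatory cytokines switch on through IκB kinase, and macrophages polarised to M1 are known for releasing such cytokines.

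Library totals were 24202741.5 to 33814818 counts, so 3 counts, the limit allowed by a count of 0, corresponded to 0.0897 to 0.126 CPM; these limits cover counting error only. The 8 luminal prostate markers were present in every group. Their summed level was 2450 to 2500 CPM in the M1 libraries and 8328 to 8567 CPM in the control libraries. Of the 8, 6 fell in M1 over control, KLK3 among them by 4.59 on the log2 scale, and 2 rose, FOLH1 by 0.26 and STEAP2 by 0.24 (edgeR adjusted p = 1.2e-23, 6.07e-06 and 0.00356). The 12 macrophage markers summed to 245 to 264 CPM in M1 libraries and 228 to 232 CPM in control libraries, with FCGR3A and TYROBP at 0 in all 18. CSF1R alone averaged 195 CPM in M1 and 223 CPM in control libraries, so these sums mostly show CSF1R. The 4 fibroblast markers summed to 31 to 35.5 CPM in M1 libraries and 20.7 to 23.8 CPM in control libraries. COL1A1 alone averaged 31.1 CPM in M1 and 20.8 CPM in control libraries, so these sums mostly show COL1A1. It rose by 0.58, PDGFRB fell by 1.53 and COL3A1 was not called (log2; edgeR adjusted p = 3.19e-05, 0.00283 and 0.0816). DCN was too low to test. Of the 5 macrophage markers high enough to test, ITGAM, LYZ and CD68 rose with M1 medium by 6.98 ± 0.27, 5.57 ± 0.47 and 2.90 ± 0.09 (log2, SE; edgeR adjusted p = 1.63e-16, 3.3e-10 and 2.9e-18). CSF1R and SPI1 fell by 0.19 and 1.95 (edgeR adjusted p = 0.00398 and 0.00232), and the part of these markers in the results was not tested. In bulk RNA, fewer cells that carry an RNA and less RNA per cell cannot be told apart.

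The LINC RNAs were mostly scarce. Their mean level over the 18 libraries had a median of 2.95 CPM, with 34 RNAs below 1 CPM, 139 between 1 and 10, 37 between 10 and 100, and 5 at 100 CPM or more. The lowest mean was 0.498 CPM and the highest 2299 CPM. Between 174 and 185 of the 215 were at 1 CPM or more in any one library. The 3 RNAs just inside the inclusion level were LINC01063, LINC00997 and LINC02901, whose CPM, taken in the library that ranks 3rd, was 1.01, 1.02 and 1.04. Just outside it were LINC00221, LINC03062 and LINC00607, at 0.992, 0.976 and 0.956.

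**Figure D1:**
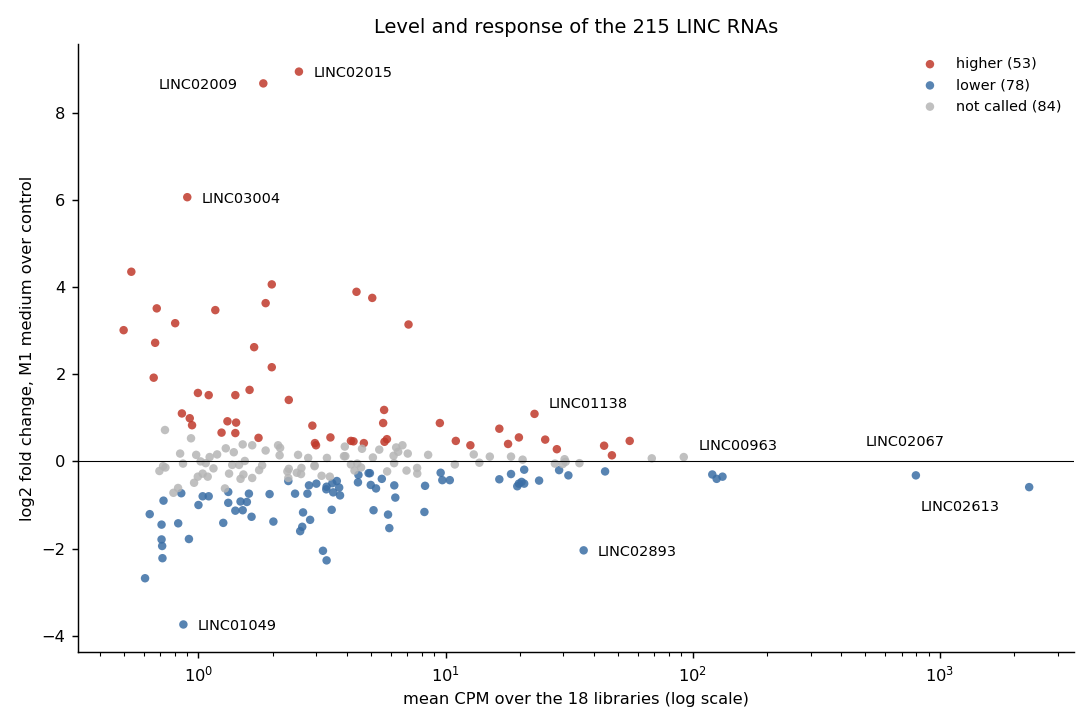
Each point is 1 of the 215 LINC RNAs, with its mean CPM over the 18 libraries (log axis) and its log2 fold change in M1 medium over control. The 53 higher, 78 lower and 84 uncalled RNAs are coloured, and fold changes spread widely below 10 CPM, while the 5 RNAs at 100 CPM or more lie between −0.59 and −0.30.

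M1 medium changed the levels of 131 of the 215 LINC RNAs relative to control medium: 53 were higher and 78 were lower (edgeR quasi-likelihood test, Benjamini-Hochberg adjusted p below 0.05 over all genes). These are 24.7% and 36.3% of the set, against 32.9% higher and 31.9% lower among the 17037 genes tested, and 33.9% and 33.5% among the 15364 genes at the same level. Other noncoding genes at that level were 26.6% higher and 33.6% lower. The median log2 fold change was −0.11 for the LINC RNAs and 0.00 for all genes. At least a 2-fold difference was found for 25 LINC RNAs that rose and 27 that fell, 11.6% and 12.6% of the set, against 10.3% and 7.91% of all genes. The M1 and control libraries did not overlap in 125 of the 131, 95.4%, against 94.7% of all called genes.

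The inclusion rule bears on these counts. It was met in both kinds of medium (with and without M1) by 169 RNAs, of which 33 rose and 64 fell. In M1-containing libraries alone it was met by 19 RNAs, for which the rule favoured a rise: 18 of them rose and 1 was not called. In libraries without M1 medium alone it was met by 17, of which 11 fell. Of the 140 RNAs at 1 CPM in all M1 and all control libraries, 27 rose, 51 fell and 62 were not called. M1 against M0 medium gave 56 higher and 80 lower LINC RNAs (34.2% and 33% of all genes), and M1 against M2 medium 59 higher and 80 lower (34.3% and 33.2% of all genes); these comparisons share the M1 libraries with the first.

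The largest rises were those of RNAs that were at or near 0 without M1 medium. Of the 10 largest, all but LINC00673 met the inclusion level in M1-containing libraries alone. The rule thus favoured their rise, and their fold changes and p-values describe it without being independent evidence. LINC02015, on the long arm of chromosome 3 (chr3:177816865-177899224, GRCh38.p14, plus strand), had 7.5, 7.77 and 7.32 CPM in M1 libraries, against 0.033, 0 and 0 CPM in control libraries. That is 690 counts against 1, a ratio of 667 with a 95% counting interval of 119 to 26366 (edgeR adjusted p = 5.85e-16). M2 and M0 libraries held at most 0.064 CPM, so the RNA was detected in quantity in the 9 libraries with M1 medium alone. LINC02009 lies within the chemokine receptor cluster of the short arm of that chromosome (chr3:46416516-46423667, minus strand). It had 6.33, 6.74 and 5.62 CPM in M1 libraries, against 0.033, 0 and 0 CPM in control libraries, which is 571 counts against 1 (ratio 552, interval 98.6 to 21825, edgeR adjusted p = 2.18e-14). LINC03004 (chr6:137665646-137674554) had 2.56, 3.07 and 1.83 CPM in M1 libraries, against 0, 0 and 0.0925 CPM in control libraries, a ratio of 73.3 (interval 24.8 to 358, edgeR adjusted p = 4.26e-09). For these 3 RNAs the lowest M1 library lay far above every M2, M0 and control library.

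The next 7 RNAs had fitted rises between 11.1-fold and 20.4-fold. The upper value, of LINC01269, rests on 6 counts over the control libraries, against 131.5 over the M1 libraries; the other 6 RNAs had counts in every control library. LINC01269 (chr14:70698698-70712153) had 1.2, 1.6 and 1.5 CPM in M1 libraries and 0.165, 0.0353 and 0 CPM in control libraries, a log2 fold change of 4.35 ± 0.50 (SE; edgeR adjusted p = 7.04e-08). LINC02984, on chromosome 8, had 4.97, 4.43 and 4.57 CPM in M1 libraries and 0.363, 0.212 and 0.247 CPM in control libraries (4.06 ± 0.22, edgeR adjusted p = 1.46e-13). LINC00342 and LINC00673 were the most abundant of the 10 in M1 medium. LINC00673, studied in pancreatic cancer for its part in the turnover of the phosphatase PTPN11, had 11.2, 13.4 and 11.5 CPM in M1 libraries, against 0.462, 1.45 and 0.802 CPM in control libraries (3.75 ± 0.21, edgeR adjusted p = 1.94e-13). LINC00342 had 11.5, 10.4 and 11.1 CPM in M1 libraries, against 0.528, 0.811 and 0.864 CPM in control libraries (3.89 ± 0.20, edgeR adjusted p = 5.02e-14). All M1 libraries of these RNAs exceeded all control libraries. LINC00987, LINC01271 and LINC02365 complete the 10, with log2 fold changes of 3.63 ± 0.29, 3.51 ± 0.43 and 3.47 ± 0.29.

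**Figure D2:**
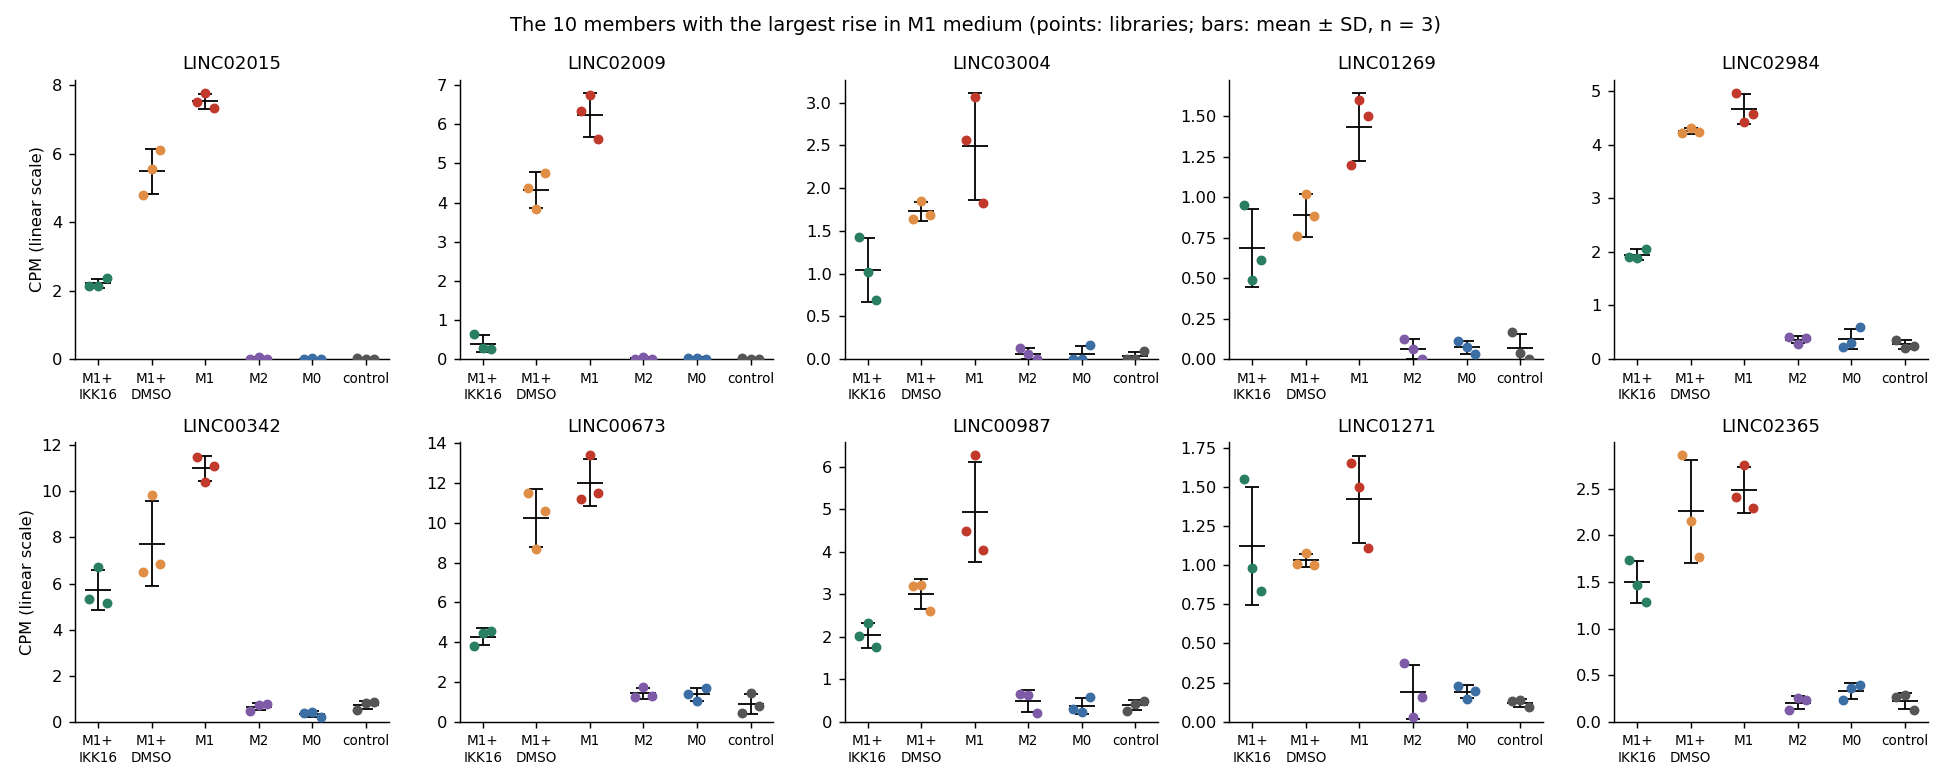
CPM of the 10 LINC RNAs with the largest called rise in M1 medium over control, in each library of the 6 groups, with mean ± SD (n = 3; lower error bars end at 0). The M1 libraries lie above the M2, M0 and control libraries in each panel, and the M1+IKK16 libraries lie below all M1+DMSO libraries in every panel except LINC01269, LINC00342 and LINC01271.

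Shared sequence limits some of these values. The RNA sequence of LINC01271 shares 56.38% of its 50-base windows with LINC01270, which overlaps it on the opposite strand by 4209 bases and rose by 3.17 ± 0.40 (log2, SE). Reads in the part that this pair shares cannot be told apart. LINC00987 shares 29.96% of its windows with other genes, the pseudogene PTMAP4 first among them, and LINC00342 shares 26.46%. LINC02015, LINC02009, LINC01269, LINC00673 and LINC02365 share none with another GENCODE transcript. Of the 192 LINC RNAs with a sequence, 105 share at least 1 window and 27 share over 20%.

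The promoter windows of the 4 largest risers, of LINC01271, picked as the riser with an NF-κB match, and of LINC01612, the faller with the largest rise under IKK16, are given to show the sequence upstream of the responding RNAs. They run from 250 bases before to 50 after the annotated start (RefSeq, GRCh38.p14), in the direction of transcription, and capitals mark matches to any of the 5 motifs searched. LINC02015 is chr3:177816615-177816914 (plus strand), LINC02009 is chr3:46423618-46423917 (minus), LINC03004 is chr6:137665396-137665695 (plus), LINC01269 is chr14:70698448-70698747 (plus), LINC01271 is chr20:50321293-50321592 (minus) and LINC01612 is chr4:170226341-170226640 (plus).
LINC02015: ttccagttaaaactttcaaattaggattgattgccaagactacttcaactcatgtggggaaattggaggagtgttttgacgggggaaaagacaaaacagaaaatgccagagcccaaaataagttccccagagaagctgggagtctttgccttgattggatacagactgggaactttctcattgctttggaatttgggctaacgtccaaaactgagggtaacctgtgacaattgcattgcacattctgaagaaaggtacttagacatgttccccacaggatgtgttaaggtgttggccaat
LINC02009: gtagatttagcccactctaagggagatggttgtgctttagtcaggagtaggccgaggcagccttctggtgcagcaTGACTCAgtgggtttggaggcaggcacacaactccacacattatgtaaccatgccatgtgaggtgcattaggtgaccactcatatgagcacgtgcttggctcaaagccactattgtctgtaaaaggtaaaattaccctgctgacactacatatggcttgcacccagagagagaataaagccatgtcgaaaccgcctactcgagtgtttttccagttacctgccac
LINC03004: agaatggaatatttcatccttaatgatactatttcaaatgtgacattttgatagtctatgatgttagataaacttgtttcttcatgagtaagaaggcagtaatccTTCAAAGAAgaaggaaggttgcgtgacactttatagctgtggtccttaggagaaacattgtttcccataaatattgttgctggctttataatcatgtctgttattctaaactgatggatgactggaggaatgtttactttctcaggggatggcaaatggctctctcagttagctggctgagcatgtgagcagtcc
LINC01269: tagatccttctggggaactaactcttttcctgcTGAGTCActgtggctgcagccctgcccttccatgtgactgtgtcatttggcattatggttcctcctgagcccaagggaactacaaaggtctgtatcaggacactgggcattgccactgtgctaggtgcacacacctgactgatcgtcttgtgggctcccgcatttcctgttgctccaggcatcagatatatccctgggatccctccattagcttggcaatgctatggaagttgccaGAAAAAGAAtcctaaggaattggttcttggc
LINC01271: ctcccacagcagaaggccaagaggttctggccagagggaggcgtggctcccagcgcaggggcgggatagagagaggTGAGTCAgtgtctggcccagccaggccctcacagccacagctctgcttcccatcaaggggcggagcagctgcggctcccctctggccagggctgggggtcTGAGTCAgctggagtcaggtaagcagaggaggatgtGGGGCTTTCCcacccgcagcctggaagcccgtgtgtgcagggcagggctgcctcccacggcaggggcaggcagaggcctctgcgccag
LINC01612: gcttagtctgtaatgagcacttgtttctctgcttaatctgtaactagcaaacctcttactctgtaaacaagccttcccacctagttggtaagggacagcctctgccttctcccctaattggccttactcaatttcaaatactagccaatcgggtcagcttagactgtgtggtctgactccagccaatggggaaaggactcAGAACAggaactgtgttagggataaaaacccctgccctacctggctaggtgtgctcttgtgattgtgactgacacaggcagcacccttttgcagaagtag

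The motifs were the NF-κB consensus, the STAT site GAS (TTCNNNGAA), the interferon-stimulated element ISRE (GAAANNGAA), the AP-1 site (TGANTCA) and the androgen receptor hexamer (AGAACA), each read on both strands. Of the windows printed, LINC02009 holds an AP-1 match, LINC03004 a GAS match, LINC01269 an ISRE and an AP-1 match, LINC01271 an NF-κB match and 2 AP-1 matches, LINC01612 an androgen receptor hexamer, and LINC02015 none. Among the 157 LINC RNAs matched in the promoter table, 4.46% hold the NF-κB consensus, against 11.3% of all 35116 promoter windows of that length. It was found for 1 of 39 risers, 3 of 64 fallers and 3 of 54 uncalled RNAs. GAS was found in 6.37% of the LINC promoters and 7.66% of all, ISRE in 5.73% and 8.11%, and AP-1 in 12.1% and 7.71%. The androgen receptor hexamer was found in 22.3% of the LINC promoters and 14.8% of all, and in 17.9% of the risers, 29.7% of the fallers and 16.7% of the uncalled RNAs. A match is a run of letters and not evidence of binding.

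The largest falls were smaller than the largest rises. LINC01049 (chr13:90493288-90535342) fell most, with 0.127, 0.17 and 0.131 CPM in M1 libraries and 2.28, 1.52 and 2.04 CPM in control libraries (log2 fold change −3.74 ± 0.38, SE; edgeR adjusted p = 9.08e-09). LINC02893 (chr9:87008451-87042126) was the most abundant of the 10 largest falls and the most precisely measured. It had 11.6, 12.6 and 12.2 CPM in M1 libraries, against 49.4, 54.3 and 45.5 CPM in control libraries (−2.04 ± 0.07, edgeR adjusted p = 1.12e-17). LINC02289 had 0.918, 1.16 and 1.11 CPM in M1 libraries, against 5.28, 5.01 and 5.12 CPM in control libraries (−2.27 ± 0.16, edgeR adjusted p = 1.56e-11). LINC01512, on chromosome 6 downstream of VEGFA, had 1.01, 1.5 and 1.31 CPM in M1 libraries, against 6.17, 4.45 and 5.12 CPM in control libraries (−2.05 ± 0.16, edgeR adjusted p = 9.78e-11). VEGFA itself rose by 0.57 ± 0.06 (edgeR adjusted p = 1.04e-08). For each of these LINC RNAs the M1 libraries lay below every M2, M0 and control library. The other 6 were LINC02724, LINC01431, LINC01612, LINC02609, LINC01881 and LINC01572, with log2 fold changes between −2.22 and −1.50. LINC01049, LINC02724 and LINC01431 met the inclusion level in libraries without M1 medium alone, so the rule favoured their fall. LINC01881 shares 49.58% of its 50-base windows with other genes, LINC00266-1 first among them.

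**Figure D3:**
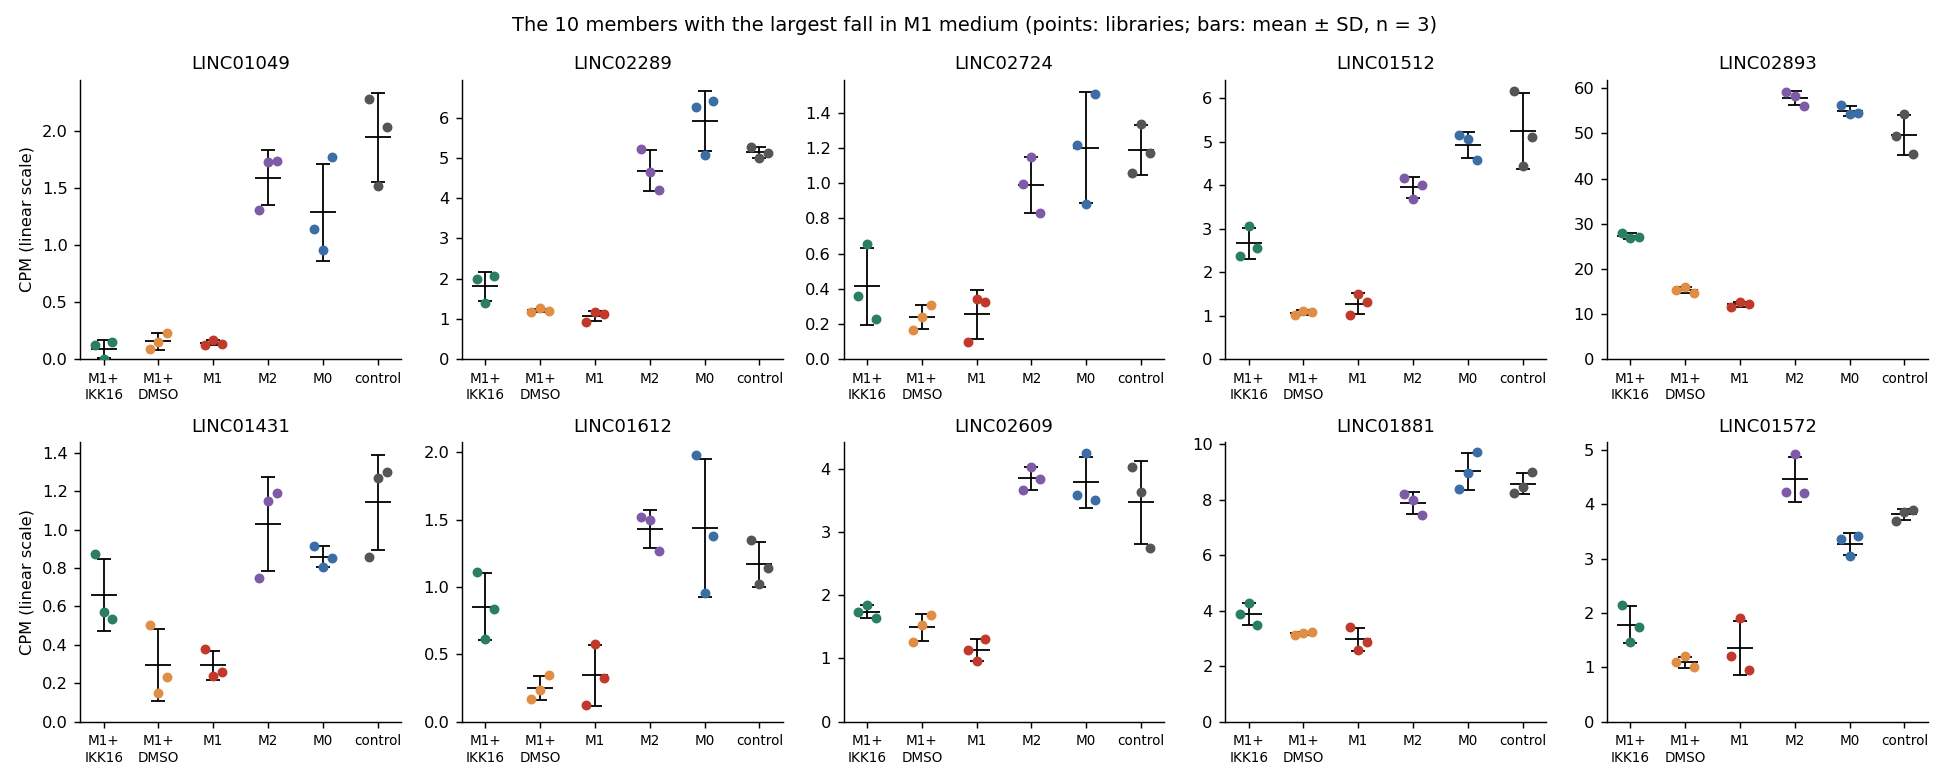
CPM of the 10 LINC RNAs with the largest called fall in M1 medium over control, in each library of the 6 groups, with mean ± SD (n = 3; lower error bars end at 0). Each panel shows the M1 libraries below the control libraries, and the M1+IKK16 libraries lie above all M1+DMSO libraries in every panel except LINC01049, LINC02724 and LINC02609.

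IKK16 changed 42 of the 215 LINC RNAs relative to DMSO in the presence of M1 medium. Of these, 22 were higher and 20 lower, 10.2% and 9.3% of the set, against 14.4% and 12.9% of all genes tested and 15.7% and 13.8% of genes at the same level. A difference of at least 2-fold was reached by 4 higher and 5 lower RNAs, 1.86% and 2.33%, against 0.91% and 1.63% of all genes tested. The largest fall was that of LINC02009, which had 0.634, 0.286 and 0.266 CPM in M1+IKK16 libraries and 4.37, 3.83 and 4.76 CPM in M1+DMSO libraries. Its log2 fold change was −3.43 ± 0.27 (SE; edgeR adjusted p = 1.17e-09), and the M1+IKK16 libraries lay well below those with DMSO yet above control libraries. LINC02015 had 2.14, 2.13 and 2.36 CPM in M1+IKK16 libraries, against 4.79, 5.56 and 6.11 CPM in M1+DMSO libraries (−1.31 ± 0.17, edgeR adjusted p = 2.75e-06). LINC00673 had 3.81, 4.46 and 4.57 CPM in M1+IKK16 libraries, against 11.5, 8.67 and 10.6 CPM in M1+DMSO libraries (−1.25 ± 0.17, edgeR adjusted p = 7.21e-06). LINC02984, LINC01697 and LINC01780 fell by 1.12, 1.05 and 1.00 on the log2 scale. LINC02009 and LINC01780 entered the set through M1 and M1+DMSO libraries, where they were high. None of their M1+IKK16 libraries reached the inclusion level, and the part of the inclusion rule in their fall was not tested.

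Not all of the strongest risers were called lower under IKK16. LINC03004 averaged 1.04 ± 0.372 CPM in M1+IKK16 and 1.73 ± 0.112 CPM in M1+DMSO libraries (SD, n = 3 each; edgeR adjusted p = 0.12), and LINC01269 averaged 0.684 ± 0.24 and 0.886 ± 0.13 CPM in M1+IKK16 and M1+DMSO libraries (edgeR adjusted p = 0.469). LINC01271 averaged 1.12 ± 0.375 CPM in M1+IKK16 and 1.03 ± 0.0422 CPM in M1+DMSO libraries, a log2 fold change of 0.12 ± 0.31 (SE; edgeR adjusted p = 0.822). The log2 fold changes of LINC03004 and LINC01269 were −0.73 and −0.39 with SEs of 0.34 and 0.36. The M1+IKK16 libraries of LINC03004 lay below all M1+DMSO libraries, and those of LINC01269 and LINC01271 overlapped them.

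Among the RNAs that rose under IKK16, LINC01512 had 2.38, 3.07 and 2.55 CPM in M1+IKK16 libraries and 1.01, 1.11 and 1.08 CPM in M1+DMSO libraries (log2 fold change 1.31 ± 0.19, SE; edgeR adjusted p = 1.44e-05). LINC01612 had 1.11, 0.613 and 0.837 CPM in M1+IKK16 libraries, against 0.168, 0.239 and 0.346 CPM in M1+DMSO libraries (1.74 ± 0.43, edgeR adjusted p = 0.00416). LINC02893 had 28, 26.8 and 27 CPM in M1+IKK16 libraries, against 15.4, 16 and 14.7 CPM in M1+DMSO libraries (0.82 ± 0.07, edgeR adjusted p = 4.04e-09). The inhibitor group of LINC02893 lay between the DMSO group and the control group, which averaged 49.7 ± 4.37 CPM (SD, n = 3). LINC01341, LINC00641, LINC01572 and LINC00308 rose by 0.97, 0.74, 0.70 and 0.63. The LINC00308 call was lost under DESeq2, without the low-count filter, in a fit of the 2 groups alone, and without any single library of these groups except M1+IKK16 library 3. The LINC01572 call was lost without M1+IKK16 library 1 or M1+DMSO library 1 or 3, and that of LINC01780, described with the falls, without M1+IKK16 library 2 or 3 or M1+DMSO library 1.

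The comparison of M1 with control and that of IKK16 with DMSO share no library. Of the 53 LINC RNAs that rose with M1 medium, 15 were lower and 2 higher with IKK16, 28.3% and 3.77%, against 30% and 5.54% of all genes that rose. Of the 78 that fell, 16 were higher and 1 lower with IKK16, 20.5% and 1.28%, against 30.9% and 2.25% of all genes that fell. The exceptions were LINC01695 and LINC01133, higher in both, and LINC00161, lower in both. LINC01133, which binds the splicing factor SRSF6 in colorectal cancer cells, had 26, 25.8 and 26.6 CPM in M1+IKK16 libraries, against 19.8, 19.1 and 19 CPM in M1+DMSO libraries (0.44 ± 0.09, edgeR adjusted p = 0.000965), and rose by 0.55 ± 0.09 in M1 over control. LINC00161 had 4.4, 4.13 and 3.65 CPM in M1+IKK16 libraries, against 4.96, 5.03 and 5.53 CPM in M1+DMSO libraries (−0.35 ± 0.11, edgeR adjusted p = 0.0206), and fell by 0.55 in M1 relative to control. The LINC00161 call was lost without library 3 of M1+IKK16 or of M1+DMSO, and that of LINC01695 without the first M1+IKK16 library.

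**Figure D4:**
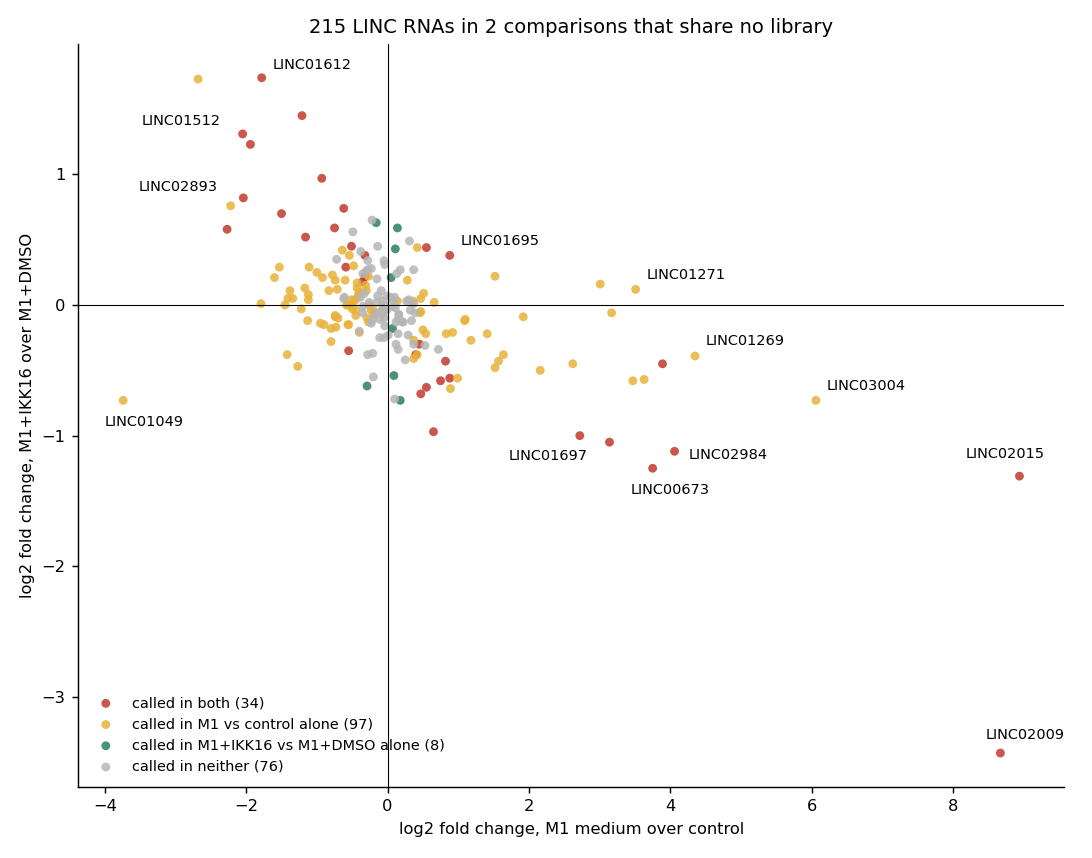
Each point is 1 of the 215 LINC RNAs, with its log2 fold change in M1 medium over control on the horizontal axis and in M1+IKK16 over M1+DMSO on the vertical axis. LINC02009 and LINC02015 lie at the lower right and LINC01612, LINC01512 and LINC02893 at the upper left, while LINC01271 and LINC01269, high on the horizontal axis, lie near 0 on the vertical axis.

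Few of these RNAs were called for the solvent itself. M1+DMSO against M1 medium gave 1 LINC RNA higher and 1 lower, against 2.23% and 2.03% of all genes. An unadjusted edgeR p below 0.05 was found for 31 of the 215, and for 3644 of the 17037 genes tested. LINC02009 and LINC02015 were not called, though all their M1+DMSO libraries lay below all M1 libraries. LINC02893 had 15.4, 16 and 14.7 CPM in M1+DMSO libraries and 11.6, 12.6 and 12.2 CPM in M1 libraries (0.35 ± 0.07, edgeR adjusted p = 0.0111). LINC01697 had 12.2, 12.1 and 12.4 CPM in M1+DMSO libraries, against 17.7, 19.7 and 16.1 CPM in M1 libraries (−0.54 ± 0.10, edgeR adjusted p = 0.00419). Both differences ran opposite to the response to M1 medium. The comparisons share the M1 libraries with opposite sign, so spread in those libraries alone can give opposite directions. The LINC02893 call was lost without any 1 of 3 libraries (M1+DMSO 1 or 2, or M1 1), and the LINC01697 call without the second M1 library.

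M0 and M2 medium had small effects. M0 against control gave 6 LINC RNAs higher and 6 lower, against 6.67% and 5.05% of all genes. M2 against control gave 4 higher and 2 lower, against 5.28% and 3.49% of all genes. No called difference in either comparison reached 2-fold. The 2 comparisons share the control libraries. LINC00526 had 6.49, 6.16 and 6.49 CPM in M0 libraries, against 4.22, 4.34 and 3.46 CPM in control libraries (0.67 ± 0.12, edgeR adjusted p = 0.0075). It shares 39.65% of its 50-base windows with other genes, chiefly its divergent neighbour LINC00667, whose log2 fold change was −0.02 ± 0.06. LINC01291, beside the DNA polymerase subunit gene POLE4, went the other way in M1 than in the other media. It had 24, 23.7 and 25 CPM in M1 libraries, 11.9, 11.2 and 12.3 CPM in M2 libraries, 11, 11.7 and 11.6 CPM in M0 libraries and 14.5, 12.7 and 15.8 CPM in control libraries. Its log2 fold changes over control were 0.75 ± 0.08 for M1, −0.28 ± 0.08 for M2 and −0.33 ± 0.08 for M0 (edgeR adjusted p = 1.18e-08, 0.0354 and 0.0178). LINC00898 averaged 3.51 ± 0.544 CPM in M2, 3.20 ± 0.0677 CPM in M0 and 4.91 ± 0.662 CPM in control libraries (SD, n = 3 each), and was called lower in both.

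LINC01315, LINC00339 and LINC01123 were called in M0 medium, with log2 fold changes of 0.51, 0.32 and −0.46, and LINC01399, LINC01317 and LINC01133 in M2 medium, with 0.47, 0.36 and 0.32. Without the first control library 1 LINC RNA was higher and 0 lower in M0 medium, and 0 and 0 in M2 medium. Of the RNAs named for M0 or M2 medium, LINC00526 alone kept its call without that control library. The same counts were reached without the first M0 library and the first M2 library, so they depend on more than 1 single library. LINC00339 and LINC01123 share 100% and 92.75% of their windows with other annotated genes. M2 against M0 medium gave 0 LINC RNAs higher and 0 lower by edgeR and by DESeq2, with 12 at an unadjusted edgeR p below 0.05 and 0% and 0.106% of all genes called. The smallest p was that of LINC01572, with 4.23, 4.93 and 4.2 CPM in M2 libraries and 3.36, 3.04 and 3.41 CPM in M0 libraries (0.45 ± 0.16, edgeR adjusted p = 0.656).

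Per kilobase of RNA, the most abundant LINC RNAs were LINC02067, LINC02301 and LINC00674, at 281, 102 and 101 CPM per kilobase over the 18 libraries. They were followed by LINC00665, LINC00486, LINC00963, LINC01667 and LINC01317, between 77 and 40.3. LINC02613, with the highest CPM, has no sequence in the annotation used and was not placed in this order. LINC02301 rose in M1 medium, with 46.1, 47.6 and 46 CPM in M1 libraries and 36.9, 37.5 and 34.7 CPM in control libraries (0.36 ± 0.06, edgeR adjusted p = 8.43e-06). LINC01667 had 68.9, 67 and 69.7 CPM in M1 libraries and 49.5, 47.1 and 51.4 CPM in control libraries (0.47 ± 0.07, edgeR adjusted p = 4.62e-06). LINC00963, reported in the progression of prostate cancer to androgen independence, averaged 95.0 ± 2.23 CPM in M1 and 88.8 ± 5.93 CPM in control libraries (SD, n = 3 each; 0.10 ± 0.06, edgeR adjusted p = 0.151), and its call appeared without the first control library. LINC00963, LINC01687 and LINC00847 were the most abundant RNAs per kilobase with no call against control in M1, M2 or M0 medium. LINC00847 averaged between 33.9 and 35.9 CPM in all 6 groups.

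The 2 LINC RNAs with the highest counts hold ribosomal protein pseudogenes. The span of LINC02613 (chr2:38458637-38515740) contains the processed pseudogene RPLP0P6, and that of LINC02067 (chr3:161426427-161448242) contains RPL23AP42, which overlaps 119 bases of its exons. LINC02613 had 1696, 1743 and 1630 CPM in M1 libraries and 2448, 2647 and 2551 CPM in control libraries, a log2 fold change of −0.59 ± 0.05 (SE; edgeR adjusted p = 1.6e-10). RPLP0, the parent ribosomal gene, averaged 141 ± 2.57 CPM in M1 and 218 ± 13.3 CPM in control libraries (SD, n = 3 each), a log2 fold change of −0.63 ± 0.07. LINC02067 had a log2 fold change of −0.32 ± 0.05 (edgeR adjusted p = 4.66e-06), beside −0.37 ± 0.07 for RPL23A. Under IKK16 against DMSO the values were 0.29 for LINC02613, 0.36 for RPLP0, 0.22 for LINC02067 and 0.27 for RPL23A. The handling of reads that match several places is not given in the sources used here, so reads of the ribosomal messages and of these 2 LINC rows cannot be told apart.

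**Figure D5:**
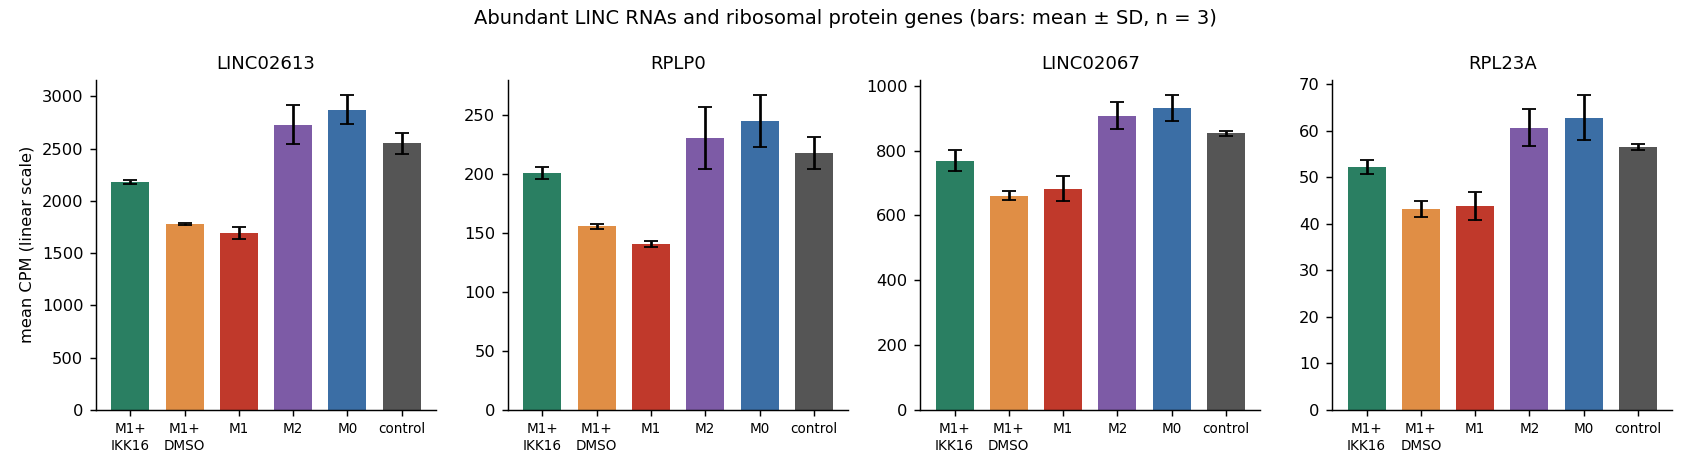
Mean CPM ± SD (n = 3) of LINC02613 and LINC02067 and of the ribosomal protein genes RPLP0 and RPL23A in the 6 groups, on linear axes that start at 0. In each panel the M1+DMSO and M1 groups are the lowest and the M1+IKK16 group stands above M1+DMSO.

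These 2 rows also set the summed level of the LINC RNAs. The sum over the 215 was 4111 to 4304 CPM in M1 libraries and 5210 to 5459 CPM in control libraries. Without LINC02613 and LINC02067 it was 1840 to 1868 CPM in M1 libraries and 1883 to 1955 CPM in control libraries. Processed pseudogenes lie wholly within the span of 49 of the 215 RNAs, among them 5 of the 8 with the highest CPM. They cover part of an exon in 5 of the 34 of these that have an exon model. All 5 RNAs at 100 CPM or more were lower in M1 medium, among them LINC00886 (−0.35 ± 0.05) and LINC00665, studied in hepatocellular carcinoma (−0.30 ± 0.04). LINC00486 had 106, 94.8 and 104 CPM in M1 libraries and 123, 173 and 106 CPM in control libraries (−0.40 ± 0.13, edgeR adjusted p = 0.0103), and these groups touch at 106 CPM.

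A list of 28 LINC genes studied in cancer or inflammation had 13 in the set, of which 8 rose, 3 fell and 2 were not called in M1 medium against control, beside 24.7% higher and 36.3% lower over the 215. With IKK16 against DMSO 2 of the 13 were higher, 1 was lower and 10 were not called. The list was drawn up with earlier results of these data known, so its counts are no independent evidence. The other 15 were below the inclusion level or have no row under that symbol. LINC01138, studied in hepatocellular carcinoma, had 30.6, 30.8 and 31.2 CPM in M1 libraries and 14.8, 14.3 and 14.3 CPM in control libraries (1.09 ± 0.07, edgeR adjusted p = 1.24e-12). M1+IKK16 libraries averaged 29.3 ± 2.46 CPM and M1+DMSO libraries 31.9 ± 1.82 CPM for it (SD, n = 3 each), a log2 fold change of −0.12 ± 0.06 (SE; edgeR adjusted p = 0.177). LINC01094 rose by 2.62 ± 0.28, LINC01503, known from squamous carcinomas, by 2.16 ± 0.28, LINC00920, an RNA described in ERG-positive prostate cancer, by 1.64 ± 0.21, and LINC00578 by 0.99 ± 0.29 (edgeR adjusted p = 2.21e-08, 3.7e-07, 4.23e-07 and 0.00413). LINC01094 and LINC00578 met the inclusion level in M1-containing libraries alone, so the rule favoured their rise. LINC00667 rose by 0.14 ± 0.06 (edgeR adjusted p = 0.045), a call lost without any 1 of 5 libraries. LINC00472, studied as a growth suppressor in breast cancer, and LINC00662 fell by 0.90 and 0.26 (edgeR adjusted p = 0.0203 and 0.0129). The LINC00472 call was lost without the second M1 or first control library, and the LINC00662 call without M1 library 3 or control library 2 or 3. LINC00467 was not called in M1 medium (0.05 ± 0.07) and was higher with IKK16 (0.21 ± 0.07, edgeR adjusted p = 0.0303).

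Some LINC RNAs lie next to one another. There were 19 pairs within 100 kb, 7 of them overlapping and 6 on opposite strands with starts within 1 kb. In M1 against control both partners were called in 9 pairs, 7 in the same direction. Over the 215, 24.7% were higher and 36.3% lower, against 32.9% and 31.9% of all genes tested. Most of the 7 pairs overlap, and overlapping pairs can share reads. LINC01697 and LINC01695 overlap by 21516 bases on opposite strands of chromosome 21, and were called in opposite directions with IKK16. LINC01697 had 6.03, 6.54 and 5.14 CPM in M1+IKK16 libraries and 12.2, 12.1 and 12.4 CPM in M1+DMSO libraries (−1.05 ± 0.11, edgeR adjusted p = 1.39e-07). LINC01695 had 16.2, 14.2 and 12.4 CPM in M1+IKK16 libraries and 11.3, 10.9 and 10.6 CPM in M1+DMSO libraries (0.38 ± 0.10, edgeR adjusted p = 0.00618). Both had risen in M1 over control, by 3.14 ± 0.12 and 0.88 ± 0.11. The use of strand in counting is not stated, so reads in the overlap cannot be assigned. LINC01687 and LINC00308, also on chromosome 21, start 158 bases apart on opposite strands; neither was called in M1 medium, and both were higher with IKK16, by 0.43 ± 0.08 and 0.63 ± 0.22. LINC00578 lies 64160 bases before LINC02015 on the same strand and rose as well, by far less. These pairs were chosen after their values were seen.

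The nearest coding gene lay within 100 kb for 150 of the 213 LINC RNAs with a position, at a median distance of 30629 bases over all, and 14 overlapped its span. For the 115 pairs within 100 kb in which both were tested, the log2 fold changes in M1 over control had a Pearson correlation of 0.16 and a Spearman correlation of 0.23 across genes, which are not independent replicates and share all libraries. The Spearman value was 0.38 over 33 RNAs downstream of the coding gene on the same strand, 0.47 over 17 upstream on the same strand, 0.06 over 36 divergent pairs, 0.08 over 17 convergent pairs and −0.21 over 7 that overlap on opposite strands. Of the 115 pairs both were called in 47, in the same direction in 29, and the LINC RNA alone was called in 22. Over all genes tested, 32.9% were higher and 31.9% lower. LINC00673 and SLC39A11, a zinc transporter gene, both rose (3.75 ± 0.21 and 1.02 ± 0.06), as did LINC01269 and the kinase gene MAP3K9 (4.35 ± 0.50 and 0.86 ± 0.13). LINC02009 lies 6993 bases from CCRL2, an atypical chemokine receptor gene, which averaged 0.271 ± 0.118 CPM in M1 and 0.011 ± 0.019 CPM in control libraries (SD, n = 3 each) and was too low to be tested. LINC02724 fell together with RPS6KA4, a stress-activated kinase gene (−2.22 ± 0.37 and −0.86 ± 0.07). LINC01431 fell while its convergent neighbour NXT1 had a log2 fold change of 0.05 ± 0.11. LINC00853 and PDZK1IP1, 3243 bases apart and convergent, went opposite ways, −1.27 ± 0.25 and 4.85 ± 0.11, a pair chosen after its values were seen.

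The factors that degrade nuclear noncoding RNA were read from a list of 22 genes of the exosome and its adaptors. In M1 against control 5 were higher and 9 lower, and with IKK16 against DMSO 5 were higher (edgeR, adjusted p below 0.05), beside 32.9%, 31.9% and 14.4% of all genes. The exosome subunits EXOSC8 and EXOSC2 and the helicase MTREX fell by 0.69, 0.57 and 0.56, while the adaptor RBM7 and the exosome nuclease DIS3 rose by 0.66 and 0.55. The Spearman correlation of RNA length with the log2 fold change in M1 over control was 0.00 over 192 LINC RNAs and 0.06 over 15058 genes. In M0 over control it was −0.12 over the LINC RNAs and −0.34 over the genes, and in M2 over control −0.04 and −0.29. The part of this length trend in the M0 and M2 calls was not tested. The RNAs had a median length of 1682.5 bases and a median of 4 exons.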

How the data were processed

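The authors deposited a table of estimated counts (expected counts, in steps of 0.5, not normalised) for 70507 RefSeq transcripts in 18 libraries. Per the submitters' processing notes, Trimmomatic, BWA 0.7.17, HOMER 4.10 and the hg38 build were used; their settings, strand use and handling of reads with several matches were not given in the sources used. Reads were 150-base pairs per the labels.

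Transcripts were named from RefSeq (GRCh38.p14) for 69830 and GENCODE 29 for 343; the 334 unnamed ones held 0.088 to 0.109% of each library's counts and were left out. Each of 28100 genes was represented by its transcript with the most counts. Counts were rounded and tested with edgeR 4.0.16 in R 4.3.3 (limma 3.58.1; TMM scaling, filterByExpr, quasi-likelihood test, all 18 libraries, 1 mean per group). Of these genes, 17037 were tested and 11063 were filtered; p-values are two-sided and Benjamini-Hochberg adjusted over all tested genes, with a threshold of 0.05. Printed CPM are TMM-scaled, and the inclusion level used plain library totals. Neighbours, pseudogenes and shared 50-base windows came from RefSeq and GENCODE 29. The fit was tested on simulated data. DESeq2 1.42.0, other scalings, filters and transcripts, and leaving out each library were alternatives.

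The named RNAs are the called ones with the largest rises and falls whose higher group averages at least 1 CPM and whose libraries do not overlap (10 and 10 for M1 against control, 6 and 6 for IKK16 against DMSO, up to 3 and 3 elsewhere), the 8 highest per kilobase, the listed genes, the largest of each pair of directions and the most abundant uncalled ones. The RNAs and lists were chosen with earlier results of these data known. All libraries were kept; replicates differed by more than sampling noise.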

Additional observations from a re-analysis of the deposited data

How the results depend on the processing

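The counts for M1 against control, M0 and M2 and for IKK16 against DMSO stayed within 1.5 times under DESeq2, other scaling, other filters, the longest transcript, the replicate block and a fit restricted to the groups concerned. Restricting the set to RNAs at 1 CPM in all M1 and control libraries gave 27 higher and 51 lower. Leaving out RNAs that share over 20% of their windows, chosen after seeing the data, gave 47 and 66. The small counts moved. With the 2 groups alone, M0 against control had 2 higher and 1 lower, M2 against control 1 and 0, and M1+DMSO against M1 2 and 5; without the filter the last had 2 and 3. Leaving out 1 library at a time gave 49 to 52 higher and 67 to 76 lower for M1 against control, 1 to 8 and 0 to 9 for M0 against control, 0 to 11 and 0 to 8 for M2 against control, 50 to 54 and 70 to 80 for M1 against M0, 52 to 57 and 72 to 79 for M1 against M2, 0 and 0 for M2 against M0, 0 to 3 and 0 to 4 for M1+DMSO against M1, and 14 to 19 and 12 to 17 for IKK16 against DMSO. The lowest IKK16 counts came without M1+IKK16 library 1 (14 higher) and library 3 (12 lower). The highest M2 counts came without M2 library 3. The cause was not tested. Same-numbered libraries did not deviate together (r −0.277 to 0.304 over 45 pairs; 6 of 18 libraries correlated best with their own number), so the numbers do not pair them. With the replicate block, M1 against control gave 51 higher and 78 lower, IKK16 against DMSO 22 and 17, and M1+DMSO against M1 1 and 2. For the named RNAs, 733 alternative values kept their direction and call, 80 lost the call, 1 gained it (LINC00963 without the first control library, 0.15, edgeR adjusted p = 0.0452) and 0 reversed. The set held 279 RNAs at 0.5 CPM and 153 at 2 CPM. Below 1 CPM the median SE of a log2 fold change was 0.33, against 0.05 at 100 CPM or more.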
